A study of Mus musculus with 5 samples.

Results

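RNA sequencing of mouse ES cells was examined for 10 genes that carry cells from G1 into S phase: the D cyclins Ccnd1, Ccnd2 and Ccnd3, the E cyclins Ccne1 and Ccne2, the kinases Cdk4 and Cdk6, the inhibitors Cdkn1b and Cdkn2b, and the retinoblastoma gene Rb1. They were taken by name, 10 of the 55147 gene symbols in the series, and all 10 were among the 12518 genes that reached 1 TPM (a level per transcript length, scaled to a fixed total per sample) in at least 2 samples. Ccnd2 and Cdkn2b passed that limit through the WT samples, since the values of Ccnd2 in both C3G KO samples, and that of Cdkn2b in C3G KO 1, were under 1 TPM as deposited. The WT group was 3 samples of E14Tg2a cells, a feeder-independent mouse ES line, and the C3G KO group was 2 samples of the same line with a puromycin resistance cassette under the EF1α promoter in place of exons 2–4 of C3G (gene symbol Rapgef1). Both groups were grown with LIF on gelatin. The null lines were clones picked with puromycin and the WT samples were the unselected parent line, and which clones were sequenced was not given in the sources used here, so clonal differences and loss of C3G cannot be told apart. The p-values measure at most the spread between these samples. Those for TPM as deposited rest on a spread pooled over genes and not on a gene's own spread.

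Background on the pathway is as follows. In G1, D cyclins pair with CDK4 or CDK6 and phosphorylate the pocket protein Rb, which then releases E2F factors that switch on S phase genes. Cyclin E with CDK2 continues this phosphorylation, p15 (Cdkn2b) blocks CDK4 and CDK6, and p27 (Cdkn1b) blocks cyclin E with CDK2. Mouse ES cells are known for a short G1 and for Rb that is phosphorylated through most of the cycle. The study asked what C3G does in ES cell self-renewal and differentiation, and the comparison here gives the RNA levels of this machinery in WT and C3G KO cells. The paper reported that C3G null cells grew more slowly and that more of them were in G1 than in its controls. The part of cycle phase in the levels below was not tested.

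The D cyclins reach Rb through a short stretch near their first residue, the LxCxE motif. The first 45 coding bases are shown for the 3 D cyclin transcripts with the highest TPM, since the text below compares these genes with each other and with Rb1. They run 5′ to 3′ from the start codon, come from the GENCODE M21 transcripts of GRCm38, and have the codons of the motif in capitals.
Ccnd1: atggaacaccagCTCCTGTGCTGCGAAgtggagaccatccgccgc
Ccnd2: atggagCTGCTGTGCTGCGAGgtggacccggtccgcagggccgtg
Ccnd3: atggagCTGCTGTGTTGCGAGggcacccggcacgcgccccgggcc
The motif spans residues 5 to 9 of cyclin D1 and residues 3 to 7 of cyclins D2 and D3, and each coding sequence holds 1 such motif.

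Sequence before a RefSeq start site is shown for Cdk4, the member with the largest rise after scaling, for Cdk6, its partner in function, and for Cdkn2b, the inhibitor of both. The windows come from RefSeq (GRCm38.p6) and run 5′ to 3′ on the gene's strand. They stop at the first base that GENCODE M21 annotates as exon of any gene. For Cdk4 and Cdkn2b they lie outside the gene as annotated. The Cdk6 stretch lies inside the annotated gene, in an intron of Cdk6-205, whose first exon is farther upstream, and before the start of the main transcript Cdk6-202. Capitals mark CACGTG, the E-box, which reads the same on both strands.
Cdk4: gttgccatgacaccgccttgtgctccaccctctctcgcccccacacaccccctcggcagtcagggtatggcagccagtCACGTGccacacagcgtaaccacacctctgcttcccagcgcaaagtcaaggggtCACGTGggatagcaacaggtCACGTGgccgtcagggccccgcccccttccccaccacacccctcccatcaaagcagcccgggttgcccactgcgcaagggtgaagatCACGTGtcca
Cdk6: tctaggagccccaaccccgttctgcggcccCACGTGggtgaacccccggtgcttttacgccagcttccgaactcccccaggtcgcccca
Cdkn2b: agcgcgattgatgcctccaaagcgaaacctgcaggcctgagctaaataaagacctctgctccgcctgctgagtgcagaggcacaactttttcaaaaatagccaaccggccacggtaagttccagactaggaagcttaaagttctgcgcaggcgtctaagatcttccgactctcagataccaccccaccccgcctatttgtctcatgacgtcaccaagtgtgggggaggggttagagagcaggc
The Cdk4 stretch is chr10:127063285-127063533 on the plus strand, the Cdk6 stretch chr5:3343643-3343731 on the plus strand and the Cdkn2b stretch chr4:89311040-89311282 on the minus strand. Windows were matched for 6 of the 10 members, namely these 3, Ccnd3, Ccne1 and Cdkn1b. The E-box was looked for after the sequences had been seen. It occurs 4 times in the Cdk4 stretch and 1 time in the Cdk6 stretch, and is in 7.15% of all 32851 windows of 300 bases, of which 8 hold at least 4. An E2F motif in the spellings TTTCCCGC, TTTCGCGC, TTTGCCGC and TTTGGCGC, searched on both strands, is in 2.26% of all windows and in none of the members' windows. These matches describe the letters and were not tested as binding sites.

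The samples differed in RNA make-up, which bears on each level below. Small RNA classes took 62.9% to 67.2% of the TPM in WT and 69.6% to 77.8% in C3G KO, and protein-coding genes took 28.8% to 31.8% and 18.6% to 26.0%. As deposited, tested genes had a median log2 fold change of −0.55, with C3G KO the lower. Values were scaled by the median of ratios, which moved that median to 0.0052, and these scaled values lead the account, with the deposited values beside them. TPM keep no read depth, so the depth and the counting error are unknown. Rapgef1, the targeted gene, stood at 8.67, 8.46 and 8.75 scaled TPM in WT and at 6.35 and 6.14 in C3G KO, 72.3% of WT (log2 fold change −0.41 ± 0.059 SE, limma adjusted p = 0.00444). Its sum covers the whole gene, including exons outside the replaced part, and the fall lost significance with a correction for gene length and GC content (−0.11, limma adjusted p = 0.239). By transcript, Rapgef1-201 and Rapgef1-204 stood at 20.9% and 42.3% of WT in scaled TPM, and Rapgef1-203 and Rapgef1-206 at 80.1% and 104%. Rapgef1-201 and Rapgef1-204 reached 0.5 TPM, the limit for describing a transcript, only in WT samples.

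Of the 10 members, 4 were called lower in C3G KO (Rb1, Cdkn2b, Cdk6 and Ccnd2), 1 higher (Cdk4) and 5 did not pass the test, after scaling. With no filter on low values the call of Cdkn2b held and that of Ccnd2 was lost (limma adjusted p = 0.112), as was that of Cdk4 (0.0683). Over all tested genes, 16.6% fell and 14.1% rose. The median log2 fold change of the members was −0.11, beside 0.0052 for all that were tested. With TPM as deposited, 7 members fell and none rose, where 56.8% of all tested genes fell and 1.45% rose; the members' median was −0.67. In scaled TPM, 5 members were lower in both C3G KO samples than in each WT sample, a pattern of 29.3% of all tested genes. Ccne1 and Cdk4 were higher in both, and the share of all tested genes with that pattern was not computed. As deposited, 7 members were lower without overlap, beside 75.7% of all tested genes. Rb1, Cdkn2b and Cdk6 fell under every alternative setting that was run on them.

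**Figure D1:**
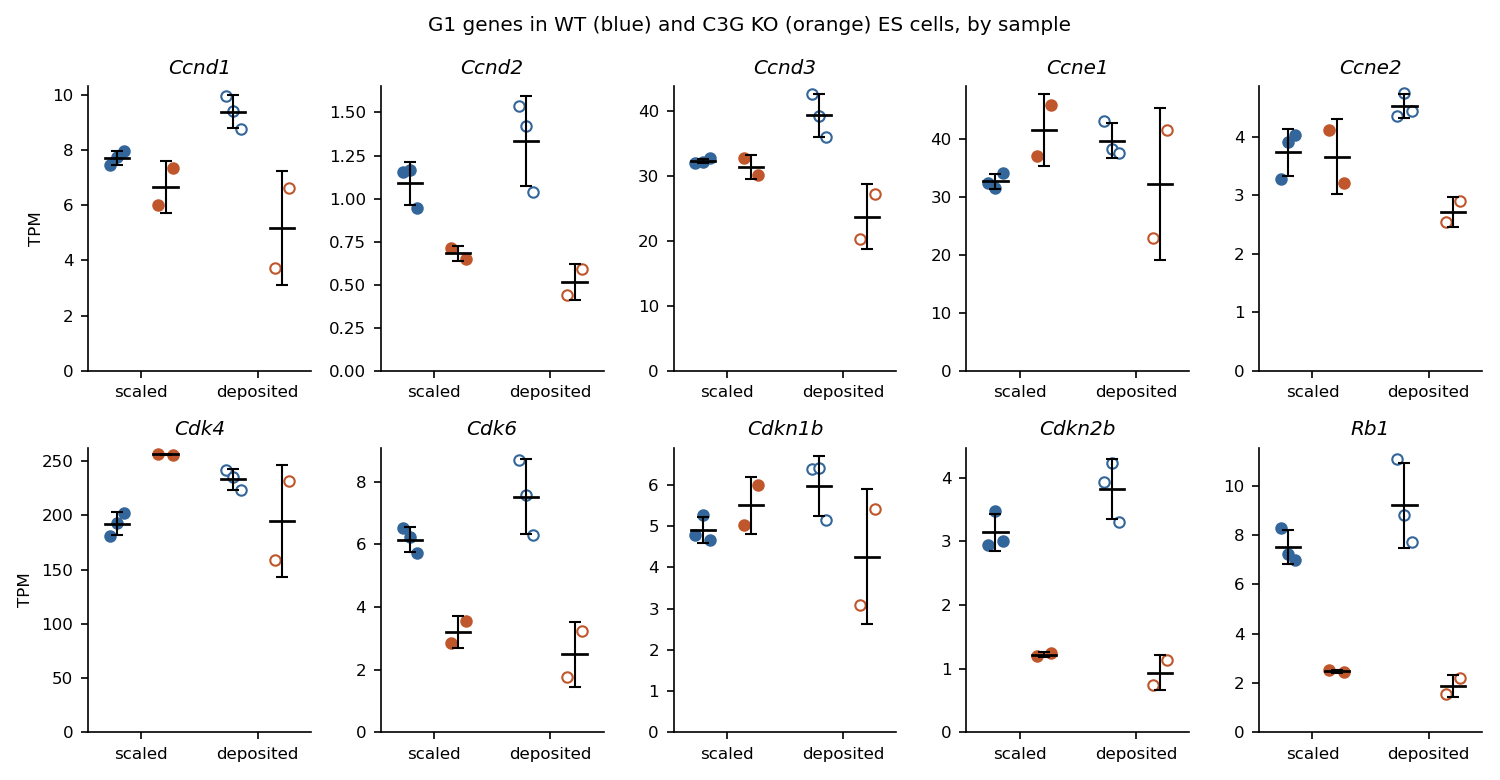
TPM (vertical axis, linear from 0, own range per gene) of the 10 genes in 3 WT samples (blue) and 2 C3G KO samples (orange), with filled points for median-of-ratios scaled TPM and open points for TPM as deposited. Horizontal lines are group means and error bars 1 SD; Rb1, Cdkn2b and Cdk6 sit lower in C3G KO on both scales, whereas Cdk4 is higher after scaling (192 against 256 TPM) and overlaps as deposited.

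**Figure D2:**
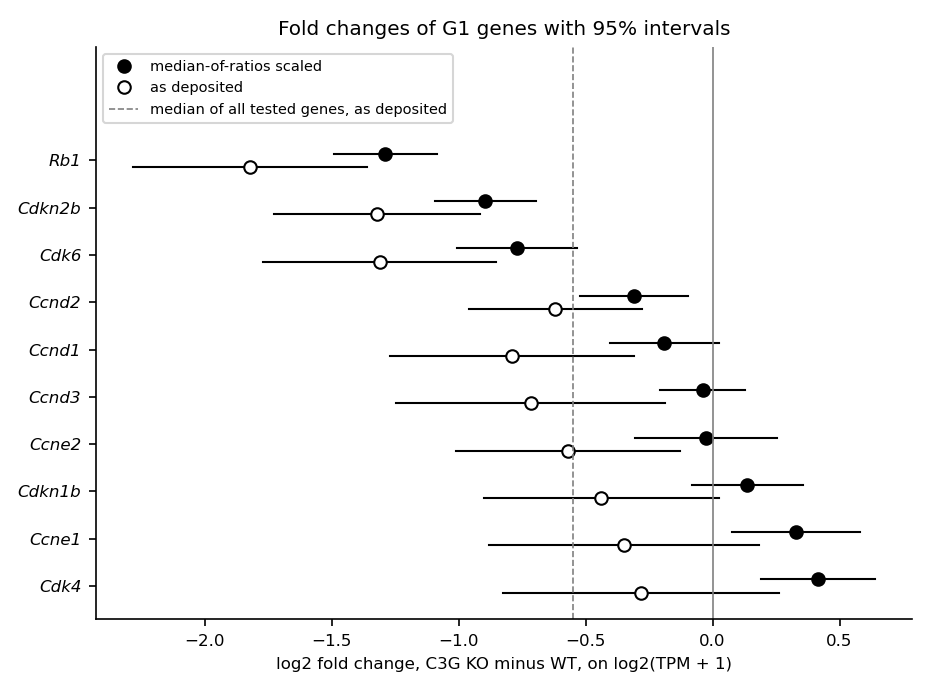
Log2 fold change, C3G KO minus WT, with 95% interval for each gene (rows), after scaling (filled) and as deposited (open); the dashed line is the median of all tested genes as deposited (−0.55). The intervals of Rb1, Cdkn2b and Cdk6 lie below that line as deposited and below 0 after scaling, and Cdk4 runs from 0.19 to 0.64 after scaling but spans 0 as deposited.

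Among the D cyclins, Ccnd3 made up most of the RNA and did not pass the test after scaling, while Ccnd2, the least abundant, was lower with a call that 8 of 17 alternative settings lost. Ccnd3 (chr17:47505051-47599691) measured 32.0, 32.2 and 32.7 scaled TPM in WT and 32.7 and 30.1 in C3G KO. The groups overlapped, and the 95% interval of the log2 fold change of −0.039 ran from −0.21 to 0.13 (limma adjusted p = 0.696). As deposited, Ccnd3 was 42.6, 39.2 and 36.1 TPM in WT and 20.2 and 27.2 in C3G KO, a fall of the size of the general shift (−0.72, limma adjusted p = 0.0197). Its direction turned with the length and GC correction (0.12), so no direction is given for it.

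Ccnd1 (chr7:144929931-144939925) measured 7.46, 7.73 and 7.95 scaled TPM in WT and 6.01 and 7.33 in C3G KO. Both C3G KO samples lay under the lowest WT sample, but the second was close to it, and the fold change did not pass the test (−0.19 ± 0.089 SE, limma adjusted p = 0.154). It passed as deposited (−0.79, limma adjusted p = 0.00505). It also passed with protein-coding transcripts alone (−0.22, limma adjusted p = 0.0450) and with scaling to the protein-coding sum (−0.39, limma adjusted p = 0.0295). The value rested on the C3G KO samples, with −0.065 without C3G KO 1 (limma adjusted p = 0.570) and −0.31 without C3G KO 2 (limma adjusted p = 0.0486). LTO1, on the opposite strand, overlaps the end of Ccnd1, and 27.2% of the 50-base stretches of the main Ccnd1 transcript are also in LTO1 transcripts, read on either strand.

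Ccnd2 (chr6:127125162-127152193) measured 1.16, 1.17 and 0.944 scaled TPM in WT and 0.712 and 0.652 in C3G KO, without overlap. Its mean in C3G KO was 62.7% of WT (log2 fold change −0.31 ± 0.088 SE on log2(TPM + 1), limma adjusted p = 0.0419). The level is near the limit of 1 TPM, where the added 1 understates the change, and limma adjusted p-values over the alternative settings reached 0.247. The call was lost without WT 1 (limma adjusted p = 0.0766), without WT 2 (0.118), without C3G KO 1 (0.114) and without C3G KO 2 (0.153).

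Shares within a sample do not depend on the scaling, but they are not free of gene length. The main transcripts have 3740 bases for Ccnd1, 6330 for Ccnd2 and 1977 for Ccnd3. Over tested genes, fold changes after scaling were lower for longer genes (Spearman correlation −0.314). With the length and GC correction Ccnd1 gave −0.069, Ccnd2 −0.15 (limma adjusted p = 0.221) and Ccnd3 0.12. The part of length in these shares was not tested. Ccnd3 took 78.8%, 78.3% and 78.6% of the summed D cyclin TPM in WT and 83.0% and 79.0% in C3G KO. Ccnd2 took 2.85%, 2.84% and 2.27% in WT and 1.80% and 1.71% in C3G KO. The share of Ccnd1 overlapped, with 18.8% ± 0.4 (SD, n = 3) in WT and 17.2% ± 2.8 (SD, n = 2) in C3G KO (exact permutation test, p = 0.8). With 3 against 2 samples the smallest p the exact test allows is 0.2, which the shares of Ccnd2 and Ccnd3 reached (adjusted p = 0.28 over 7 shares). After scaling, the 3 D cyclins summed to 40.6, 41.1 and 41.6 TPM in WT and to 39.5 and 38.1 in C3G KO, lower in both.

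The E cyclins, which activate CDK2, did not pass the test after scaling. Ccne1 (chr7:38097984-38107534) was 32.3, 31.4 and 34.1 scaled TPM in WT and 37.1 and 45.8 in C3G KO. Both C3G KO samples lay above WT, with C3G KO 2 the farther, and the log2 fold change of 0.33 ± 0.10 SE just missed the threshold (limma adjusted p = 0.0572). Without C3G KO 1 it passed (0.48, limma adjusted p = 0.0239), whereas without C3G KO 2 it dropped to 0.18 (limma adjusted p = 0.189). It passed with the length and GC correction (0.34, limma adjusted p = 0.0455). As deposited the sign turned, with 43.1, 38.3 and 37.6 TPM in WT and 22.9 and 41.4 in C3G KO (−0.35, limma adjusted p = 0.235).

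Ccne2 (chr4:11191351-11204779) was 3.27, 3.90 and 4.03 scaled TPM in WT and 4.11 and 3.21 in C3G KO. The samples were fully mixed, with a 95% interval of −0.31 to 0.25 around a log2 fold change of −0.026 (limma adjusted p = 0.886), and the sign turned under several alternatives. As deposited it was 4.36, 4.75 and 4.44 TPM in WT and 2.54 and 2.9 in C3G KO, without overlap and close to the general shift (−0.57, limma adjusted p = 0.0253). Of the E cyclin TPM, Ccne2 took 9.19%, 11.0% and 10.6% for WT, against 9.99% and 6.54% for C3G KO (exact permutation test, p = 0.4), so Ccne1 was the main E cyclin in both. Ints8 on the opposite strand shares 18.0% of the 50-base stretches of the main Ccne2 transcript.

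The kinases that partner D cyclins moved in opposite directions after scaling: Cdk6 fell to 52.1% of WT and Cdk4 rose to 133%. Cdk6 (chr5:3341485-3531008) was 6.53, 6.23 and 5.72 scaled TPM in WT and 2.85 and 3.57 in C3G KO. The groups were well apart (log2 fold change −0.77 ± 0.097 SE, limma adjusted p = 0.00290), and as deposited the fall was −1.31 (limma adjusted p = 4.97e-07), from 8.70, 7.59 and 6.30 TPM to 1.76 and 3.23. It passed in all 18 alternative settings, with log2 fold changes from −1.31 to −0.44, and in the 1 added later (−1.42, limma adjusted p = 0.0376). Of the 5 Cdk6 transcripts that reached 0.5 TPM in at least 2 samples, Cdk6-202 alone did so in both C3G KO samples. It was at 49.8% of WT in scaled TPM, without overlap. The others, at 34.5% to 59.3% of WT, passed that limit through the WT samples. Such a limit favours lower values in C3G KO, so they are not separate support. In bulk RNA, fewer cells expressing a gene and less RNA per cell cannot be told apart.

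Cdk4 (chr10:127063534-127067920) was the most abundant member, at 181, 193 and 202 scaled TPM in WT and 257 and 256 in C3G KO. The C3G KO samples were nearly equal and above each WT sample (log2 fold change 0.41 ± 0.092 SE, limma adjusted p = 0.0195). This rise depended on the scaling: as deposited Cdk4 was 241, 235 and 223 TPM in WT and 158 and 231 in C3G KO, a log2 fold change of −0.28 that did not pass (limma adjusted p = 0.350), and with quantile normalization the value was −0.015. As deposited it still lay above the median of all tested genes, −0.55. The call was also lost without WT 2 (limma adjusted p = 0.0843), without C3G KO 1 (0.0657) and without C3G KO 2 (0.0655).

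The make-up of Cdk4 RNA was mixed. Protein-coding transcripts held 41.5% of its TPM in WT and 39.1% in C3G KO, and the rest was annotated as retained intron or as a target of nonsense-mediated decay. The retained-intron transcript Cdk4-206 went from 4.64% of Cdk4 TPM in WT to 8.03% in C3G KO and reached 230% of WT in scaled TPM, whereas the protein-coding transcripts Cdk4-201, Cdk4-205 and Cdk4-204 were at 127%, 128% and 100.7%. The other retained-intron transcripts, Cdk4-203, Cdk4-207 and Cdk4-209, were at 121%, 101.3% and 148%. Tspan31, a tetraspanin gene on the opposite strand, overlaps Cdk4. In Cdk4-205 no 50-base stretch is shared with another gene.

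Since Cdk4 far outweighed Cdk6, the summed TPM of both followed Cdk4, with 198 ± 10 in WT (SD, n = 3) and 259 in both C3G KO samples after scaling. The share of Cdk6 in this sum, free of scaling, was 3.48%, 3.13% and 2.75% in WT and 1.10% and 1.38% in C3G KO. The groups did not overlap (exact permutation test, p = 0.2, the smallest possible, and adjusted p = 0.28). The share is free of scaling but not of gene length. Over tested genes, fold changes after scaling were lower for longer genes (Spearman correlation −0.314), and Cdk6-202 has 11525 bases against 950 for Cdk4-205. With the length and GC correction Cdk6 gave −0.52 (limma adjusted p = 0.00550). The part of length in the share was not tested. The genes whose centred log2 scaled TPM lay closest to Cdk4 over the 5 samples were Melk, Snhg12 and Xrcc5, with Euclidean distances of 0.022, 0.023 and 0.027.

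Of the inhibitors, Cdkn2b fell and Cdkn1b did not pass the test. Cdkn2b (chr4:89306299-89311039), encoding p15, was 2.95, 3.47 and 3.003 scaled TPM in WT and 1.198 and 1.25 in C3G KO. The mean in C3G KO was 39.0% of WT (log2 fold change −0.90 ± 0.082 SE, limma adjusted p = 0.00100). As deposited it went from 3.93, 4.23 and 3.31 TPM to 0.74 and 1.13 (−1.32, limma adjusted p = 6.84e-09), and the fall passed in all 17 alternative settings and in the 1 added later (−1.40, limma adjusted p = 0.00437). Cdkn2b has 1 annotated transcript and shares no 50-base stretch with another gene.

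The gene next to Cdkn2b, Cdkn2a, fell by a like amount. It encodes p16 and p19ARF, went from 3.59, 4.22 and 3.51 TPM as deposited in WT to 0.76 and 1.18 in C3G KO, and had a log2 fold change of −0.86 after scaling (limma adjusted p = 0.00203). Cdkn2a too passed the limit of 1 TPM through the WT samples, with C3G KO 1 under it as deposited. That limit favours lower values in C3G KO, so the fall of Cdkn2a is not separate support. The transcript Cdkn2a-202 held 89.9% of Cdkn2a TPM in WT and 94.2% in C3G KO. Around Cdkn2b, 19 other tested genes lay within 5 Mb, of which 2 fell (Cdkn2a and Plin2, which encodes a lipid droplet protein) and 4 rose, and their median was 0.038.

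Cdkn1b (chr6:134920401-134925513), encoding p27, was 4.79, 5.26 and 4.66 scaled TPM in WT and 5.02 and 5.99 in C3G KO. The groups overlapped (log2 fold change 0.14 ± 0.090 SE, limma adjusted p = 0.288), and the sign turned to −0.44 as deposited and to −0.050 with scaling to the protein-coding sum. Within the Cip/Kip family of inhibitors, Cdkn1b took 16.6%, 17.5% and 17.2% of the summed TPM in WT and 21.2% and 24.9% in C3G KO. The share was higher in both C3G KO samples (exact permutation test, p = 0.2, the smallest possible; adjusted p = 0.28). Of the other members of that family, Cdkn1c (p57) fell (−0.60, limma adjusted p = 0.00776) and Cdkn1a (p21) gave −0.12 (limma adjusted p = 0.336).

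**Figure D3:**
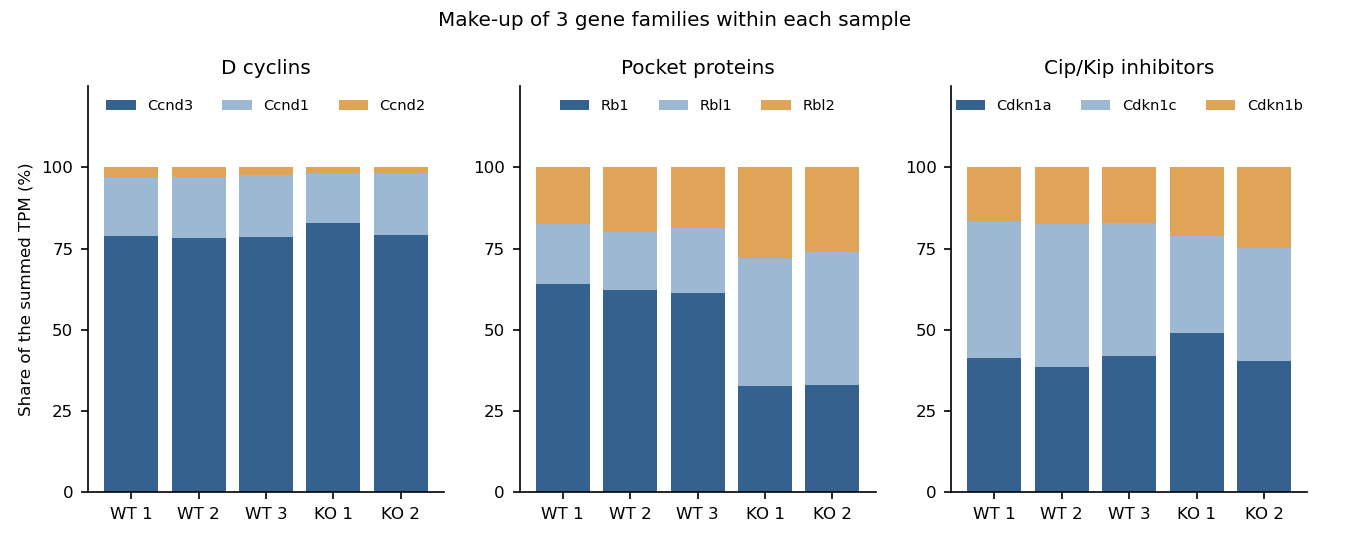
Stacked bars give the share of the summed TPM (vertical axis, percent) of each gene in the D cyclins, the pocket proteins and the Cip/Kip inhibitors, for 3 WT and 2 C3G KO samples (bars). Rb1 fills 61.4% to 64.1% of the pocket protein bar in WT and 32.8% to 33.1% in C3G KO, while Ccnd3 fills most of the D cyclin bar in all 5 samples.

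Rb1 (chr14:73183673-73325822, minus strand) showed the largest change among the 10 genes. It was 8.30, 7.25 and 6.995 scaled TPM in WT and 2.53 and 2.43 in C3G KO, 33.0% of WT (log2 fold change −1.29 ± 0.084 SE, limma adjusted p = 0.000391). As deposited it went from 11.1, 8.83 and 7.71 TPM to 1.56 and 2.2 (−1.82, limma adjusted p = 8.85e-13). The fall passed in all 18 alternative settings, with log2 fold changes from −1.82 to −0.74, and in the 1 added later (−1.93, limma adjusted p = 0.00213). The main transcript, Rb1-201, held 66.2% of the TPM of the gene in WT and 66.7% in C3G KO. It stood at 33.4% of WT in scaled TPM, without overlap. Rb1-204, Rb1-205 and Rb1-206 were lower too, but reached 0.5 TPM only in WT samples. That limit favoured lower values in C3G KO, so their direction is not separate support.

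The other pocket proteins moved less than Rb1. Rbl1 (p107) rose by 0.30 on the log2 scale after scaling (limma adjusted p = 0.0215), though it gave −0.19 as deposited (limma adjusted p = 0.395). The call of Rbl1 was also lost with scaling to the protein-coding sum, with no filter, with the replicate block and without WT 2. Rbl2 (p130) gave −0.097 (limma adjusted p = 0.361) but passed as deposited (−0.56, limma adjusted p = 0.0159), close to the general shift. Rb1 accordingly went from 62.6% ± 1.4 (SD, n = 3) of the pocket protein TPM to 33.0% ± 0.2 (SD, n = 2), a change of −29.6 percentage points (exact permutation test, p = 0.2, the smallest possible; adjusted p = 0.28). The genes closest to Rb1 in centred log2 scaled TPM over the 5 samples were Cntfr, Ktn1 and Cdk14, with distances of 0.10, 0.11 and 0.12.

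Rb1 lies in a stretch of chromosome 14 whose genes were lower as a whole. Of 52 other tested genes within 5 Mb, 47 fell, none rose and the median log2 fold change was −1.02. The 5 that did not pass were Serp2, the processed pseudogenes Cbx3-ps6, Rps2-ps6 and Gm10132, and the snoRNA gene Gm25517, and among protein-coding neighbours alone 46 of 47 fell. The nearest tested genes were Lpar6 (−1.08) and Rcbtb2 (−1.22), which overlap Rb1 on the opposite strand, and Itm2b (−1.14) and Med4 (−0.93) on the other side. All 4 had limma adjusted p-values of at most 0.00129. Rb1 minus the median of its neighbours was −0.27 on the log2(TPM + 1) scale, with −0.23 in C3G KO 1 and −0.29 in C3G KO 2. On that scale 12 of the 52 lay below Rb1. The added 1 understates changes of low genes, so these differences and the rank depend on level. By scaled means, Lpar6 was at 27.7% of WT, Rcbtb2 at 35.4%, Itm2b at 42.1% and Med4 at 49.9%, beside 33.0% for Rb1.

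The wider chromosome showed the same direction to a lesser degree. Of 441 tested genes on chromosome 14, 250 fell and 29 rose, with a median of −0.46. On the log2(TPM + 1) scale 25 were below Rb1. Rb1 minus the median of its neighbours was −0.24 within 2 Mb and −0.38 within 10 Mb. For the other 9 members the median of the neighbours within 5 Mb lay between −0.062 and 0.15, with 0.020 around Cdk6. The part of the region in the fall of Rb1 was not tested beyond these differences. The opposite-strand gene Rcbtb2 shares 1.26% of the 50-base stretches of Rb1-201, and whether counting used strand was not given in the sources used here.

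**Figure D4:**
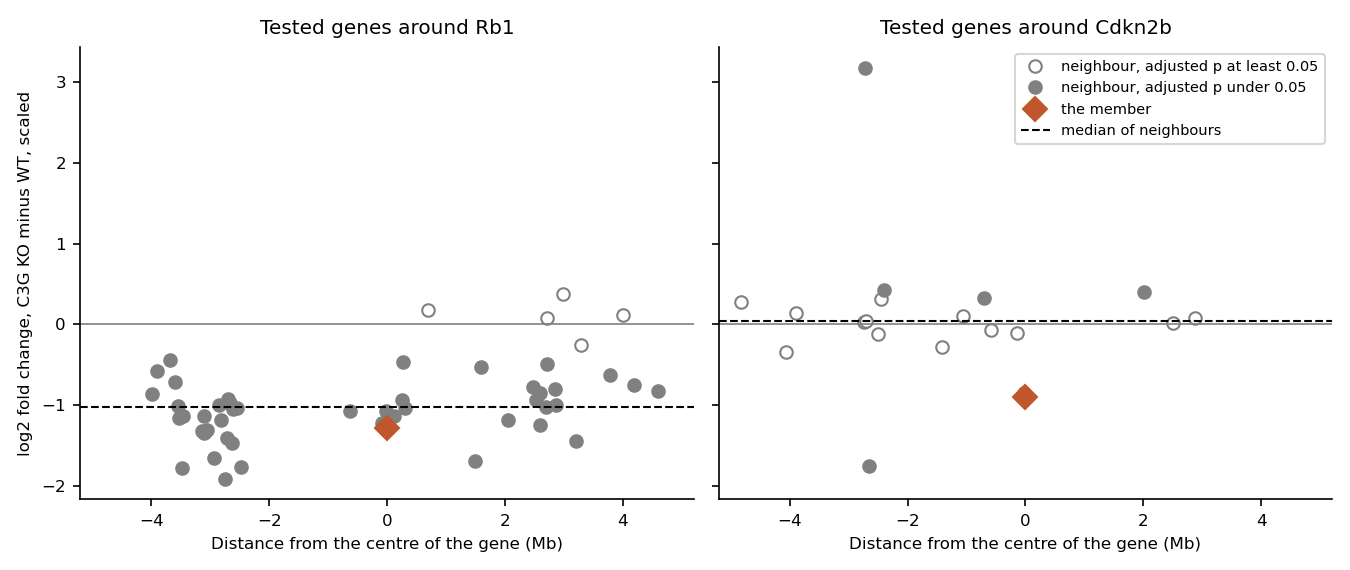
Log2 fold change after scaling (vertical axis) of tested genes within 5 Mb of Rb1 (left) and Cdkn2b (right) against distance from the centre of the gene in Mb; filled points passed the test and the diamond is the gene itself. Around Rb1 the median (dashed) is −1.02, close to Rb1 at −1.29, whereas around Cdkn2b it is 0.038, well above Cdkn2b at −0.90.

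The rest of the pathway was read from 7 lists holding 74 genes other than the members, of which 71 were tested. After scaling 17 rose, 12 fell and 42 did not pass, with a median of 0.12, beside 14.1% higher and 16.6% lower over the whole table. These are 23.9% and 16.9% of the 71. As deposited none rose by limma, where 33 fell and the median was −0.54. The count of falls dropped to between 5 and 7 on leaving out any 1 sample, and that of rises to 6 without WT 2, 11 without C3G KO 1 and 5 without C3G KO 2.

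Of the 10 E2F and DP factors, 2 rose and 3 fell after scaling, where 14.1% and 16.6% of all tested genes did. The falls went to 0 without WT 2 or C3G KO 1, to 1 without WT 1 or WT 3 and to 0 with no filter, and the rises to 1 without WT 2 or either C3G KO sample. E2f1, an activator, rose by 0.35 (limma adjusted p = 0.0183) and Tfdp2, a DP partner, by 0.51 (limma adjusted p = 0.00726), though both were negative as deposited (−0.19 and −0.14). E2f6 and E2f8, both repressors, fell by 0.29 (limma adjusted p = 0.0181 and 0.0459). The activator E2f3 also fell, by 0.27 (limma adjusted p = 0.0242).

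Of the 22 S phase genes driven by E2F, 10 rose, none fell and 12 did not pass after scaling, with a list median of 0.27 beside 0.0052 over the whole table, where 14.1% rose. The count of rises went to 4 without WT 2 and to 3 without C3G KO 2, with no filter, and with scaling to the protein-coding sum. Chaf1b, a chromatin assembly subunit, rose by 0.72 (limma adjusted p = 0.00170) and Mcm3, of the replicative helicase, by 0.46 (limma adjusted p = 0.00868). As deposited no gene of this list rose, 5 fell and the median was −0.41, above the general shift of −0.55.

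Of the 7 tested genes of CDK2 and its activation, 1 rose, near the 14.1% of all tested genes that did. It was Ccnh, which encodes the cyclin of the CDK-activating kinase (0.40, limma adjusted p = 0.00598, and −0.25 as deposited). Cdk2 itself gave 0.12 (limma adjusted p = 0.268). Of the 11 tested genes of cyclin and inhibitor turnover, 1 rose and 3 fell, where 14.1% and 16.6% of all tested genes did. The rise was of Rbx1, a ligase subunit (0.31, limma adjusted p = 0.0461, and −0.37 as deposited), and was lost without WT 1 or WT 2. Of the 3 falls, 1 was left without WT 1. The 3 were Fbxw7, the adaptor that targets cyclin E (−0.61, limma adjusted p = 0.00116), Gsk3b, a kinase that marks cyclin D1 (−0.31, limma adjusted p = 0.0385), and Ambra1, an adaptor for D cyclins (−0.29, limma adjusted p = 0.0397). Of 4 other CDK inhibitors tested, the 2 that fell were Cdkn2a and Cdkn1c, where 16.6% of all tested genes fell.

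Of the 15 G2 and mitosis genes, 2 rose and 4 fell after scaling, beside 14.1% and 16.6% of all tested genes. The falls went to 1 without WT 2 or C3G KO 2 and to 2 without WT 3 or C3G KO 1, and the rises to 0 without WT 2 or either C3G KO sample and to 1 without WT 1 or WT 3. Top2a, a topoisomerase, rose by 0.38 (limma adjusted p = 0.0186) and Bub1b, a spindle checkpoint kinase, by 0.29 (limma adjusted p = 0.0380), and both were negative as deposited (−0.32 and −0.39). Cenpe, a kinetochore motor, fell by 0.47 (limma adjusted p = 0.00545) and Foxm1, a mitotic transcription factor, by 0.36 (limma adjusted p = 0.0174). 

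**Figure D5:**
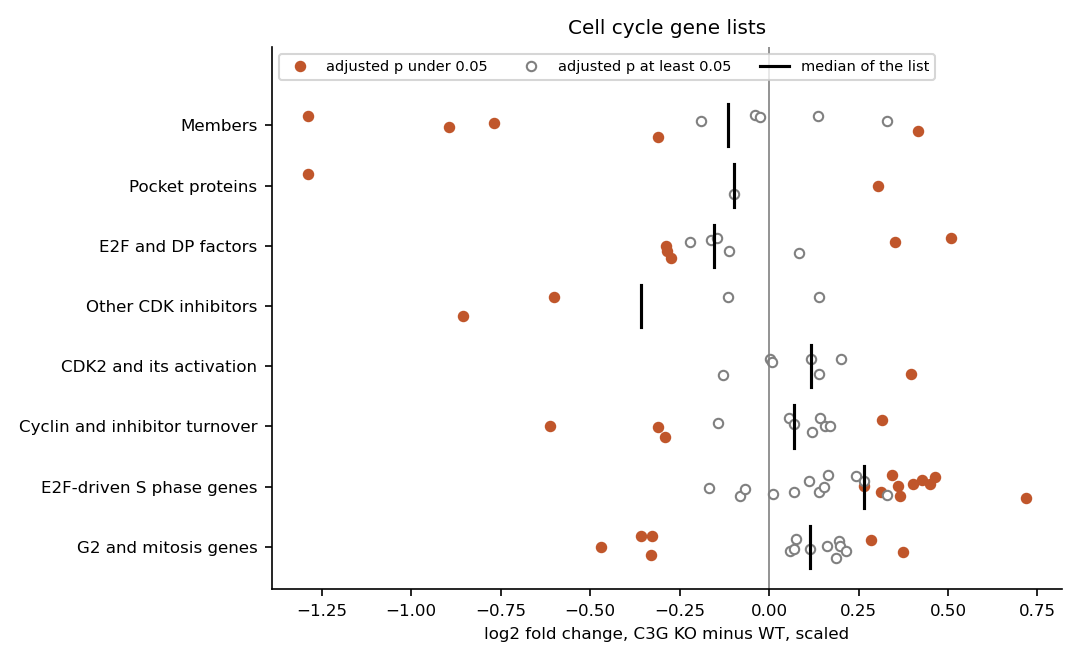
Log2 fold change after scaling (horizontal axis) of each tested gene of the 10 members and of the 7 lists (rows; the pocket protein row repeats Rb1), with orange points past the test, open points not past it and black bars for medians. The S phase row has a median of 0.27 and no fall, and the members' row runs from Rb1 at −1.29 to Cdk4 at 0.41; the rises turn or lose the call as deposited.

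The ES cell markers were present in all samples, with a summed level of 1668 to 2083 scaled TPM in WT and 2555 to 2867 in C3G KO. As deposited the sums were 2223 to 2345 and 1771 to 2311, and Dppa5a alone, at 1149 scaled TPM in WT and 1871 in C3G KO, made most of the scaled gap. Of the 8, 1 rose after scaling (Dppa5a) and none fell, and none passed as deposited. Markers of other cells were at low levels, and their scaled sums differed between the groups. Mesoderm markers summed to 4.02 to 5.06 in WT and 1.17 to 1.76 in C3G KO, with brachyury (T) at −1.15 (limma adjusted p = 0.00254), and trophoblast markers to 3.23 to 3.98 and 1.91 to 2.54. Fibroblast markers summed to 3.63 to 4.48 in WT and 1.56 to 1.64 in C3G KO, primitive endoderm markers to 2.17 to 2.39 and 4.45 to 5.16, and neural markers to 12.2 to 13.95 and 23.3 to 25.6, with 1 of the 4 neural markers at 0 in all samples. As deposited the last 2 overlapped, with primitive endoderm at 2.39 to 3.19 in WT and 2.75 to 4.67 in C3G KO and neural at 14.85 to 16.41 and 15.79 to 21.06, and no primitive endoderm marker reached the limit for the test. Tubb3 alone, at 10.45 scaled TPM in WT and 20.8 in C3G KO, made most of the scaled neural gap, and Pax6 did not pass (limma adjusted p = 0.0568). The part of other cells in the changes of Rb1, Cdkn2b, Cdk6 and Ccnd2 was not tested.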

How the data were processed

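The authors deposited TPM per Ensembl transcript (142647 transcripts) for 3 WT and 2 C3G KO samples, rounded and without counts; each sample sums to the same total over all RNA classes. Total RNA was sequenced as paired ends. The submitters' processing notes name bcl2fastq 2.20, FastQC 0.11.7, STAR 2.5.1b and RSEM 1.2.31 and the build GRCm38 (mm10). TPM were summed by gene symbol over GENCODE M21 (141524 transcripts matched, 1123 did not).

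Deposited TPM were scaled by the median of ratios (size factors 1.33, 1.22 and 1.10 for WT and 0.618 and 0.905 for C3G KO), and log2(TPM + 1) of the 12518 genes with at least 1 TPM in at least 2 samples was fitted with limma 3.58.1 (R 4.3.3), with a mean-variance trend, two-sided, Benjamini-Hochberg adjustment over all tested genes and a threshold of 0.05. Fold changes are on that log2(TPM + 1) scale and understate changes of low genes. The prior degrees of freedom were 3.11 after scaling and infinite as deposited, so in the latter fit a gene's own spread does not enter its p-value. The study scales by such factors, hence the choice of main scaling. The fit was tested on simulated data. Shares were compared by exact permutation tests over samples, two-sided, adjusted over 7 shares.

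Genes named are the 10 members, Rapgef1, genes used in shares, in each list up to 2 largest rises and 2 largest falls past the threshold, the 2 nearest tested genes on each side of Rb1, and the 3 most alike genes to the members with the largest rise and fall. E2f3, Ambra1, Plin2, marker genes and the neighbours of Rb1 that did not pass were named after their values were seen. Members and lists were chosen with earlier results of these data known. Alternatives were other scalings, pseudocounts of 0.1 and 5, other filters, no trend, a replicate block, a length and GC correction, leaving out each sample, size factors without chromosome 14, and protein-coding transcripts alone.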

Additional observations from a re-analysis of the deposited data

How the results depend on the processing

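Rb1, Cdkn2b and Cdk6 kept their direction and their call under each alternative run. The count of members that fell was 7 with TPM as deposited and 2 with a filter of 5 TPM, which tested 7 of the 10. The count that rose was 0 with TPM as deposited, quantile normalization, scaling to the protein-coding sum, no filter and the replicate block with and without the length and GC correction, 2 with that correction alone and 2 with protein-coding transcripts only, and 0 to 1 on leaving out a sample. In the 7 lists the falls were 33 as deposited, 4 with no filter, 5 with the replicate block, 6 with the length and GC correction, 3 with both and 5 to 7 on leaving out a sample. The rises there were 0 as deposited, 10 with quantile normalization, 3 with scaling to the protein-coding sum, 5 with no filter, 11 with the replicate block and 5 to 14 on leaving out a sample.

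Signs that turned were as follows, as log2 fold changes. As deposited, Ccne1 was −0.35, Cdk4 −0.28 and Cdkn1b −0.44. With quantile normalization Ccne2 was 0.050 and Cdk4 −0.015, and with the protein-coding sum Cdkn1b was −0.050. With the length and GC correction Ccnd3 was 0.12. Ccne2 was 0.069 with protein-coding transcripts only and ranged from −0.17 to 0.12 on leaving out a sample, above 0 without WT 3 and without C3G KO 2. Ccnd3 ranged from −0.098 to 0.023 there, above 0 without C3G KO 2. The share of Ccnd1 in the D cyclins differed by 0.473 percentage points without C3G KO 1, and over the leave-outs from −3.55 to 0.473. The causes were not tested.

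The shared replicate numbers were not shown to pair the samples: deviations from the group means correlated at −0.18 for number 1 and 0.18 for number 2, and those of the 2 C3G KO samples mirror each other. With the replicate block Ccne2 was 0.019, and with that block plus the correction for length and GC Ccne2 was 0.033 and Ccnd3 0.13. Added after seeing the data, the replicate block with TPM as deposited gave −0.39 for Ccne1, −0.31 for Cdk4 and −0.53 for Cdkn1b, with 0 members higher. Genes called over the whole table were 1488 higher and 1814 lower with the block on scaled TPM, beside 1760 and 2083 without it, and 704 and 3743 with the protein-coding sum. Against the median of its neighbours, Rb1 ranged from −0.38 to −0.17 over all alternatives, with −0.26 against protein-coding neighbours only, chosen after seeing the data. Read depth is unknown, so its limit on the low levels of Ccnd2, Cdkn2b and Ccne2 could not be set.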
